A study of Homo sapiens with 9 samples.

Results

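Peaks were examined at the start sites of 9 genes that encode the imitation switch (ISWI) remodelers and their partner subunits, several of which carry a bromodomain. The genes were chosen by name, and their hg19 start sites were set with them: BAZ2A, BAZ2B, BAZ1A and BAZ1B, the 2 ATPases SMARCA5 and SMARCA1, and the partner subunits RSF1, BPTF and CECR2. A peak was counted at a gene when its nearest edge lay within 2 kb of that start site. This gave 18 peaks in 3 lists, of 26201 peaks on the assembled chromosomes: 7 of 6794 in the HA-BAZ2B list, 2 of 2389 in the WT list and 9 of 17018 in the H3K4me3 list.

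The lists come from CUT&Tag, in which an antibody guides a transposase to its targets in permeabilised cells, on A549 cells, a human lung adenocarcinoma line. HA-BAZ2B stands for an anti-HA antibody in cells with an HA epitope inserted at the 5′ end of the endogenous BAZ2B gene, WT for the same antibody in wild-type A549 cells without the tag, and H3K4me3 for an antibody against that histone mark in the tagged cells. Each of the 3 groups had 3 replicates but 1 deposited list, which holds peaks seen in at least 2 replicates with the values of 1 library. No value per replicate was used here, so no level below has a replicate error and no test between groups could be made. The labels also describe an siRNA transfection shared by all samples, without naming the siRNA, and do not say whether the tagged cells are 1 clone. The identity of the cells was not checked against marker genes, because no hg19 gene annotation was at hand.

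ISWI remodelers slide nucleosomes with an ATPase, SMARCA5 (SNF2H) or SMARCA1 (SNF2L), which pairs with 1 of several large subunits that direct it. BAZ2A (TIP5) and SMARCA5 form NoRC, known for silencing ribosomal RNA genes, and BAZ2B is the closest relative of BAZ2A. BAZ1A (ACF1) belongs to the ACF and CHRAC complexes, BAZ1B (WSTF) to WICH, RSF1 to RSF, BPTF to NURF, and CECR2 to CERF. H3K4me3 marks the nucleosomes around active promoters, and the PHD finger of BPTF binds it.

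Promoter sequences from RefSeq (GRCh38.p14) are shown for 5 start sites: BAZ2B, whose product was profiled, BAZ2A and SMARCA5, which had a WT peak, SMARCA1, whose promoter is the richest in G of those found, and CECR2, which had no peak in any list. Each runs over the 250 bases before the RefSeq start, 5′ to 3′ on the strand of the gene. For CECR2 and BAZ2B this start may not be the one at which peaks were counted. Capitals mark 4 runs of at least GGG, or of at least CCC, with 1 to 7 bases between runs, a pattern that can fold into a G-quadruplex on the strand that carries G.
BAZ2B (chr2:159615566-159615815, minus strand): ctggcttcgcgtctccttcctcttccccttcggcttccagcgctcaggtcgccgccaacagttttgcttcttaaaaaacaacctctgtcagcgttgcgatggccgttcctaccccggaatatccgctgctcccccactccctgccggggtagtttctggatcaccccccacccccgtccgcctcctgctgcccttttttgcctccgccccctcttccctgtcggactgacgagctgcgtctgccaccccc
BAZ2A (chr12:56636360-56636609, minus strand): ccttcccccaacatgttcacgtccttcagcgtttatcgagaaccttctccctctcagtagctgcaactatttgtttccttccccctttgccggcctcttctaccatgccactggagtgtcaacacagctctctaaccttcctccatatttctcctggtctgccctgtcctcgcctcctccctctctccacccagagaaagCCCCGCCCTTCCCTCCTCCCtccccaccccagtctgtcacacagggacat
SMARCA5 (chr4:143513452-143513701, plus strand): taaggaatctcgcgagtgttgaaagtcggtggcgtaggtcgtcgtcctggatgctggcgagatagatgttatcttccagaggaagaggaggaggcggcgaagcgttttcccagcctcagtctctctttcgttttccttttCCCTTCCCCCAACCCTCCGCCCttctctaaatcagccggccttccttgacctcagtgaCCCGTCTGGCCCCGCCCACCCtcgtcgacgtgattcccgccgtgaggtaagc
SMARCA1 (chrX:129523491-129523740, minus strand): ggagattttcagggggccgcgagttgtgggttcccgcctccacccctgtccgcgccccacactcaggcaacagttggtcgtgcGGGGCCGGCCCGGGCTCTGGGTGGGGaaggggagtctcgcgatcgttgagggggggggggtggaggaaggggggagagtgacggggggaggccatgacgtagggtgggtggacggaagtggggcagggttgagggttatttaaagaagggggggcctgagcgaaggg
CECR2 (chr22:17359699-17359948, plus strand): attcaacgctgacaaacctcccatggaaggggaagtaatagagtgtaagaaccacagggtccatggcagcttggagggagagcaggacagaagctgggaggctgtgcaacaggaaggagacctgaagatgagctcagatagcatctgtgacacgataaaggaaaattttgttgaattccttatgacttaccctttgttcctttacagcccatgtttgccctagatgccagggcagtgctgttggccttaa

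The series title concerns G-quadruplex DNA, so the pattern was counted on both strands, without overlaps on a strand, in the 250 bases before each start. The RefSeq promoter table used here gave 9 start sites for 7 of the 9 genes, 2 each for BAZ2A and BAZ2B. Promoter sequences of BAZ1A and BPTF were not analysed here. The pattern stood at 3 of the 9 start sites, against 23.5% of all 35114 entries of the same length and 28.8% of the 22197 entries of protein-coding genes. At BAZ2A, 1 match of 20 bases lay 30 to 50 bases before the start, with G on the opposite strand. At SMARCA5, matches of 22 and 21 bases lay 88 to 110 and 31 to 52 bases before it, also with G on the opposite strand. At SMARCA1, 1 match of 26 bases lay 141 to 167 bases before the start on the strand of the gene, in a promoter with 48.4% G. These letters were not found in that window at BAZ2B, BAZ1B, RSF1 or CECR2. GC content was 56.4 to 68.0% at 8 of the 9 start sites and 48.4% at CECR2, which also had 2 CpG dinucleotides, against a median of 16 over protein-coding entries. These sequences and the peaks are on different builds, and RefSeq entries were matched to the genes by symbol only. For CECR2, whether the RefSeq start is the one used for the peaks was not determined. For BAZ2B, the more downstream RefSeq start may lie downstream of the one used for the peaks.

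H3K4me3 peaks stood at 8 of the 9 genes, HA-BAZ2B peaks at 7 and WT peaks at 2. CECR2 had none in any list, and BAZ1A had H3K4me3 alone. Of all chromosome positions, 2.77% lay within 2 kb of an H3K4me3 peak, 1.14% within 2 kb of an HA-BAZ2B peak and 0.358% within 2 kb of a WT peak. The same share over all promoters was not analysed here. Every HA-BAZ2B peak at these genes overlapped an H3K4me3 peak, as did 99.0% of all HA-BAZ2B peaks.

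**Figure D1:**
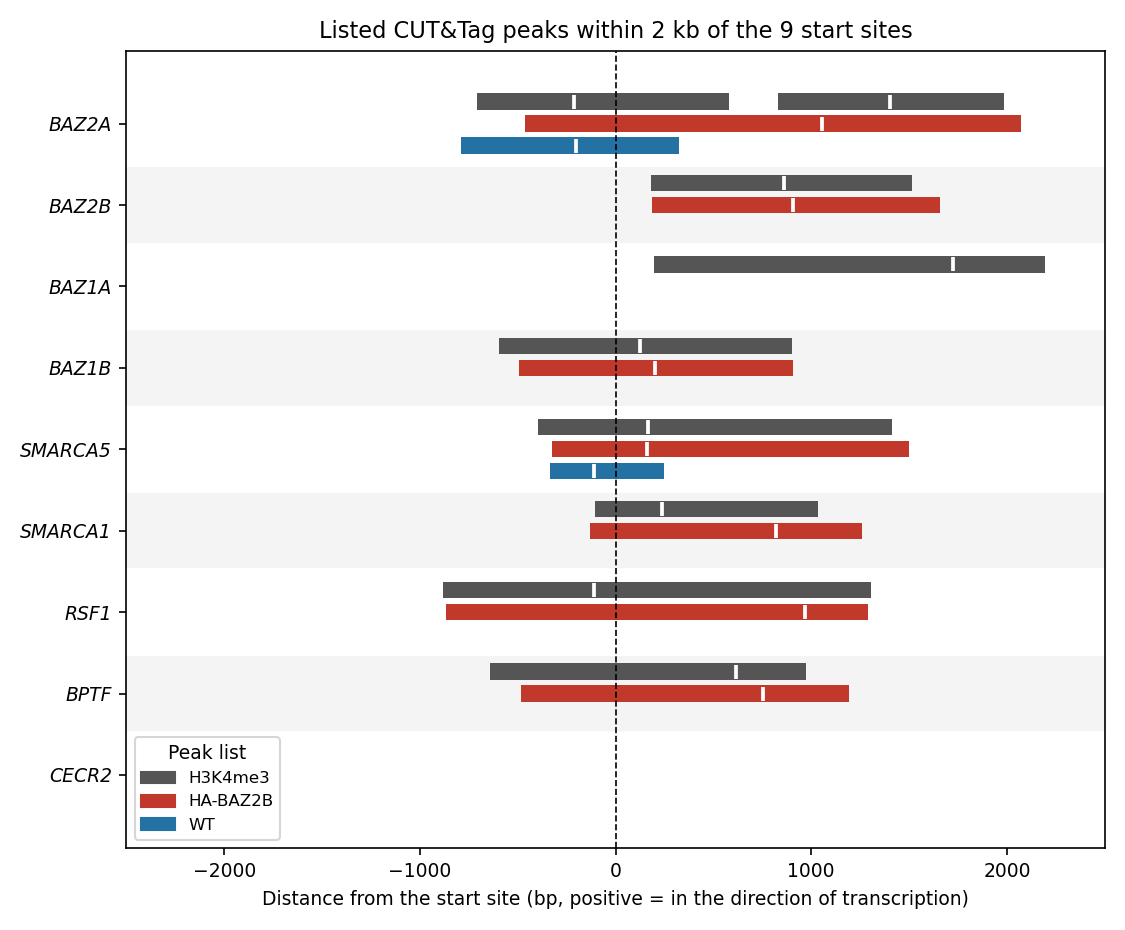
Listed peaks within 2 kb of the 9 start sites, with distance from the start site in bp on the x axis (positive in the direction of transcription) and 1 row per gene. Bars are peaks of the H3K4me3 (grey), HA-BAZ2B (red) and WT (blue) lists, and white ticks are their summits. HA-BAZ2B bars appear at 7 genes, WT bars at BAZ2A and SMARCA5 only, and CECR2 is empty.

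BAZ2B is the gene whose product was profiled. In tagged cells it had an HA-BAZ2B peak at chr2:160471544-160473015, from 188 to 1659 bp downstream of the start site, with a width of 1472 bp. Its fold enrichment, the authors' ratio of signal to the peak caller's own background, was 6.92, and its −log10 q, the authors' significance, was 26.1. These values ranked at the percentiles 30.5 and 43.2 of the HA-BAZ2B list, so the peak at the gene itself was in the lower part of that list on both. The H3K4me3 peak covered nearly the same stretch, chr2:160471689-160473020, with a fold enrichment of 9.04 and a −log10 q of 54.0, and its summit lay 48 bp from that of HA-BAZ2B. WT cells had no listed peak at BAZ2B. The numbers of the WT peaks on either side show 10 peaks of the source library left out over the 5908 kb between them, so a WT peak here that did not recur cannot be told apart from none. The same holds at the other 6 genes without a listed WT peak, where 1 to 7 peaks of that library were left out between the neighbours.

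The start site used for BAZ2B is not its only one. RefSeq places 2 starts 96.9 kb apart on GRCh38, and the more upstream one lies 64 bp from a start of MARCHF7, a ubiquitin ligase gene, on the opposite strand. In hg19, an H3K4me3 peak of fold enrichment 9.96 stood 95280 to 96574 bp upstream of the start used here, and none was listed from there downstream for 329 kb apart from the one described. The spacing thus places the start used here near the more downstream RefSeq start, whose sequence is the one shown. If the upstream peak covers the upstream RefSeq start, the other RefSeq start lies downstream of the start used, within the HA-BAZ2B peak. The bases shown may thus not be those before the start from which the peak distances were measured. The upstream H3K4me3 peak had a −log10 q of 61.8 and overlapped no listed HA-BAZ2B and no listed WT peak. Among the 2 H3K4me3 peaks at this spacing, HA-BAZ2B was thus listed at the downstream one. The next listed HA-BAZ2B peak upstream was 1544 kb away, and 7 peaks of the source library were left out over that stretch. Where these lay is not known.

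BAZ2A, the closest relative of BAZ2B, had the widest HA-BAZ2B peak of the 9 genes. It spanned chr12:57028093-57030626, from 463 bp upstream to 2070 bp downstream of the start. Its 2534 bp rank at the percentile 98.8 of the list by width, while its fold enrichment of 4.85 ranks at 8.29. It overlapped 2 H3K4me3 peaks separated by 249 bp, one over the start (chr12:57029583-57030870, fold enrichment 4.15) and one from 830 to 1985 bp downstream (chr12:57028178-57029333, fold enrichment 4.29). Only 59 of 6794 HA-BAZ2B peaks (0.868%) overlapped 2 or more H3K4me3 peaks. Of 260 pairs of neighbouring H3K4me3 peaks at most 500 bp apart, 50 pairs (19.2%) shared 1 HA-BAZ2B peak.

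BAZ2A was also 1 of the 2 genes with a WT peak, at chr12:57029841-57030954, 1114 bp wide, with a fold enrichment of 4.93 and a −log10 q of 9.56. The WT peak sat on the H3K4me3 peak over the start, with summits 10 bp apart at 200 and 210 bp upstream. The HA-BAZ2B summit lay 1055 bp downstream, within the other H3K4me3 peak and 1255 bp from the WT summit. In 98.5% of the 1902 one-to-one pairs of HA-BAZ2B and WT peaks the summits were no farther apart. A further H3K4me3 peak, from 5995 to 7150 bp downstream and so outside the window, with a fold enrichment of 6.18, carried neither anti-HA peak. RefSeq has its other BAZ2A start 6033 bp downstream of the first on GRCh38.

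BAZ1B and BAZ1A, which encode the remaining BAZ subunits, differed in the anti-HA lists. At BAZ1B an HA-BAZ2B peak (chr7:72935703-72937103) of 1401 bp, with a fold enrichment of 7.30 and a −log10 q of 31.9, reached from 495 bp upstream to 905 bp downstream. The H3K4me3 peak ended within 2 bp of it downstream (chr7:72935705-72937204) and had the highest −log10 q of the 9 H3K4me3 peaks at these genes, 70.6, at the percentile 90.2 of its list. No WT peak was listed there.

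At BAZ1A the H3K4me3 peak (chr14:35342657-35344656) was 2000 bp wide, at the percentile 94.7 of the list by width, with a fold enrichment of 5.95 and a −log10 q of 41.4. It lay wholly downstream of the start, from 197 to 2196 bp, with its summit at 1722 bp. No anti-HA peak of either line was listed at BAZ1A. The nearest HA-BAZ2B peaks were 171 kb upstream and 161 kb downstream, and the peak numbers show 2 peaks of the source library left out between them, and where these lay is not known. Among the 289 H3K4me3 peaks of the same decile of the list by both −log10 q and width, 57.4% carried an HA-BAZ2B peak and 19.7% a WT peak.

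Both ATPase genes had an HA-BAZ2B peak. At SMARCA5, whose product pairs with several BAZ subunits, it spanned chr4:144434290-144436114, from 326 bp upstream to 1498 bp downstream, with a fold enrichment of 8.41 and a −log10 q of 46.9 (percentiles 53.5 and 90.6). The H3K4me3 peak (chr4:144434219-144436030, fold enrichment 7.77) had nearly the same width, 1812 against 1825 bp, and a summit 7 bp away. SMARCA5 was the other gene with a WT peak, which was small, 585 bp (chr4:144434279-144434863), with a −log10 q of 6.30 at the percentile 20.8 of the WT list. That peak kept to the upstream end, from 337 bp upstream to 247 bp downstream, and covered 31.5% of the HA-BAZ2B peak, against a median of 48.8% over all pairs of these lists.

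SMARCA1, on chromosome X, had an HA-BAZ2B peak at chrX:128656200-128657592 with a fold enrichment of 9.24 and a −log10 q of 42.1. The H3K4me3 peak (chrX:128656427-128657564) had the highest fold enrichment of the 9, 10.5, and was the only one of them above the list's median of 9.07. The HA-BAZ2B peak was 1.22 times as wide as the H3K4me3 peak, and 98.0% of all one-to-one pairs had a ratio no higher. Its summit lay 820 bp downstream of the start against 237 bp for H3K4me3, a distance of 583 bp. No WT peak was listed at SMARCA1, and 1 peak of the WT source library was left out over the 6071 kb between the listed neighbours.

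Of the partner subunits outside the BAZ family, BPTF had the strongest HA-BAZ2B peak of the 9 genes. It lay at chr17:65821158-65822830, from 482 bp upstream to 1190 bp downstream, with a fold enrichment of 9.91 and a −log10 q of 57.8 at the percentiles 74.0 and 97.7 of the list. The H3K4me3 peak there (chr17:65820997-65822611) ranked at 36.3 by fold enrichment and 85.7 by −log10 q. No WT peak was listed at BPTF.

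RSF1 had a broad pair of peaks of nearly equal extent, 2155 bp for HA-BAZ2B (chr11:77530591-77532745) and 2184 bp for H3K4me3 (chr11:77530577-77532760). Their fold enrichments were low in each list, 6.42 and 6.00, at the percentiles 23.3 and 14.5. The summits were far apart, at 967 bp downstream for HA-BAZ2B and 112 bp upstream for H3K4me3, and 98.9% of all one-to-one pairs had summits at most this far apart. RefSeq has a start of AAMDC on the opposite strand 422 bp upstream of the RSF1 start on GRCh38. No WT peak was listed at RSF1.

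CECR2 had no peak in any list within 2 kb. The nearest H3K4me3 peaks were 107 kb upstream (fold enrichment 5.39) and 52.1 kb downstream (fold enrichment 11.4), and their numbers follow each other. Between them the source library of the H3K4me3 list thus had 0 further called peaks over 159 kb, whether recurrent or not. The nearest HA-BAZ2B peaks were 304 kb upstream and 154 kb downstream, with 1 peak of the source library left out between them.

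The 9 H3K4me3 peaks at the 8 marked genes were read against all H3K4me3 peaks. An HA-BAZ2B peak overlapped 8 of the 9, against 39.5% of all 17018. Of these 8, the 2 at BAZ2A were overlapped by the same HA-BAZ2B peak. A WT peak overlapped 2 of the 9, against 13.1%, and both lists met at the same 2, against 11.3%. HA-BAZ2B without WT was found at 6 of the 9, against 28.2%, and neither list at 1, against 58.7%. Of the 7 HA-BAZ2B peaks, 2 overlapped a WT peak, close to the 28.7% of the whole list, and both WT peaks overlapped an HA-BAZ2B peak, against 81.0% of the WT list.

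The H3K4me3 peaks of these genes were wider than most, so the counts were also set beside H3K4me3 peaks of like −log10 q and width. All 9 exceeded the list's median width of 1132 bp, with a median of 1500 bp, and 6 of the 9 exceeded its median −log10 q of 42.0. Over the whole H3K4me3 list, anti-HA peaks were more frequent at higher −log10 q. In the deciles of the list by −log10 q that hold the 9 peaks, the share with an HA-BAZ2B peak ran from 16.3 to 77.6% and averaged 48.0%. Among H3K4me3 peaks of the same decile by both −log10 q and width, it averaged 58.9%, against 88.9% (8 of 9) at these genes. The 2 BAZ2A peaks share 1 HA-BAZ2B peak, which thus counts for 2 of the 8. Their own matched shares, 24.1 and 26.2%, were the lowest of the 9. For WT the corresponding average was 20.1%, against 22.2% (2 of 9). The 9 peaks belong to 8 genes chosen by name, and these shares are given without a test.

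**Figure D2:**
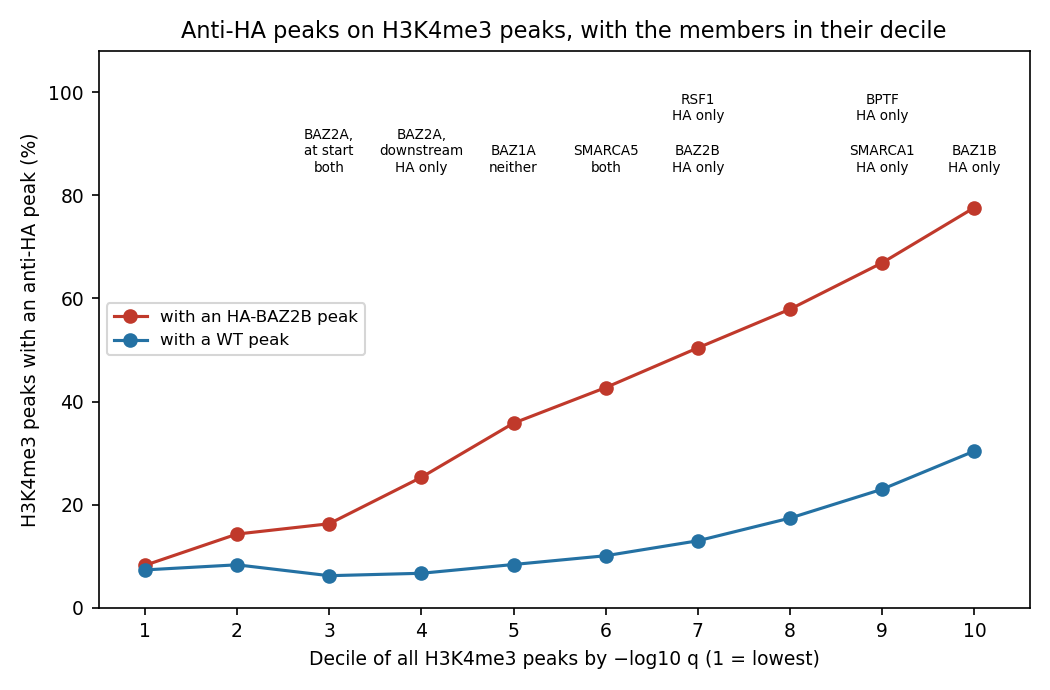
Percentage of H3K4me3 peaks that carried a peak of HA-BAZ2B (red) or of WT (blue) by decile of all 17018 H3K4me3 peaks by −log10 q. Names above the lines show the decile that holds each member's H3K4me3 peak and which anti-HA lists overlapped it. BAZ2A lies in deciles 3 and 4, where few H3K4me3 peaks carry HA-BAZ2B, and BAZ1A in decile 5 is the only member peak with neither.

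Within the HA-BAZ2B and H3K4me3 lists the peaks at these genes were wider than the list median, and most had a fold enrichment below it. Of the 2 WT peaks, 1 exceeded the WT list's median width and 1 its median fold enrichment. Fold enrichment of the 7 HA-BAZ2B peaks ran from 4.85 to 9.91 with a median of 7.30, against 8.16 over the list, and 3 of the 7 exceeded that list median. All 7 were wider than the list's median of 1219 bp, from 1393 bp at SMARCA1 to 2534 bp at BAZ2A, and 5 of the 7 exceeded its median −log10 q of 28.5. By fold enrichment the order was BPTF, SMARCA1, SMARCA5, BAZ1B, BAZ2B, RSF1 and BAZ2A, so the 3 BAZ genes ranked below both ATPase genes. With no replicate values, no neighbours in this order can be said to differ. For H3K4me3, fold enrichment ran from 4.15 to 10.48 with a median of 7.77, against 9.07 over the list. By fold enrichment the median percentile was 36.2 for HA-BAZ2B and 33.4 for H3K4me3, and by −log10 q it was 83.0 and 62.9. Scores are not scaled between lists, so levels of different lists are not compared.

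**Figure D3:**
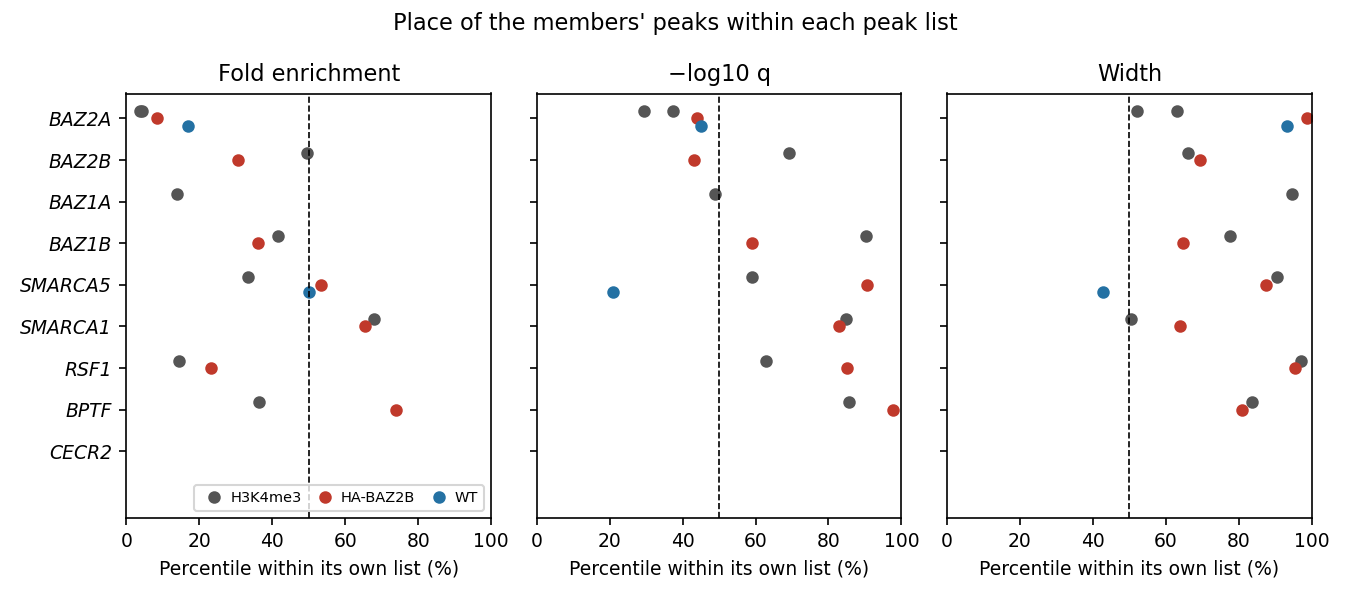
Percentile (%) of each member's peak within its own list, by fold enrichment, −log10 q and width, with 1 row per gene and 1 point per peak. Dashed lines mark the list medians. Points for HA-BAZ2B (red) and H3K4me3 (grey) lie mostly left of the median by fold enrichment and right of it by width, and those of BAZ2A are lowest by fold enrichment.

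Widths of HA-BAZ2B and H3K4me3 peaks were compared in the 6 one-to-one pairs, which leave out BAZ2A, where the HA-BAZ2B peak was 1.97 and 2.19 times as wide as the 2 H3K4me3 peaks it overlapped. In the 6 pairs, the HA-BAZ2B peak was 0.934 (BAZ1B) to 1.22 (SMARCA1) times as wide as the H3K4me3 peak, with a median of 1.02. It was the wider one at BAZ2B, SMARCA5, SMARCA1 and BPTF. Over all 6556 pairs the median ratio was 0.918, with quartiles of 0.793 and 1.01. The WT peaks were 0.865 times as wide as the H3K4me3 peak at BAZ2A and 0.323 times at SMARCA5, on either side of the median of 0.502 over 2210 pairs. As the mark was mapped in tagged cells alone, each WT pair sets 2 different lines side by side.

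**Figure D4:**
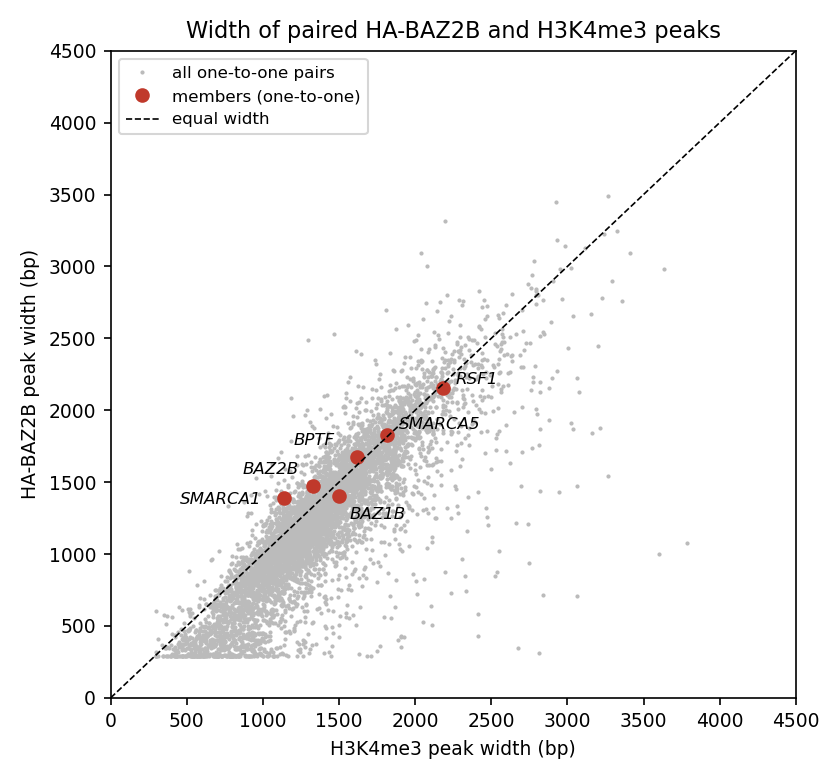
Width in bp of HA-BAZ2B peaks (y axis) against the H3K4me3 peak they overlap (x axis), for all 6556 one-to-one pairs (grey) and the 6 members among them (red). The dashed line marks equal width. SMARCA1 and BAZ2B lie above the line, BAZ1B just below it, and the other 3 close to it.

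Summits of the HA-BAZ2B peaks lay downstream of the start site at 7 of 7 genes, from 160 bp at SMARCA5 to 1055 bp at BAZ2A. H3K4me3 summits lay downstream in 7 of 9 peaks, the exceptions being RSF1 and the peak over the BAZ2A start. Both WT summits lay upstream, by 200 bp at BAZ2A and 111 bp at SMARCA5. The peaks themselves reached farther downstream than upstream in 7 of 7 cases for HA-BAZ2B, 8 of 9 for H3K4me3 and 0 of 2 for WT. Sides and reach are relative to the start sites used. At BAZ2B a RefSeq start may lie farther downstream, within the HA-BAZ2B peak, so the side of its summit is not certain. The side of the summit over all promoters was not analysed here. The distance between the HA-BAZ2B and H3K4me3 summits was 7 bp at SMARCA5, 48 bp at BAZ2B, 78 bp at BAZ1B, 137 bp at BPTF, 583 bp at SMARCA1 and 1079 bp at RSF1. At BAZ2A, which is not a one-to-one pair, the HA-BAZ2B summit lay 350 bp from that of the downstream H3K4me3 peak and 1265 bp from that of the peak over the start. Over all one-to-one pairs the median distance was 84 bp, with quartiles of 27 and 275 bp. In a peak of over 1 kb the summit is a single position of 1 library, and the spread of summits between replicates is not known.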

How the data were processed

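The members and lists were chosen with earlier results of these data known. The 3 deposited narrowPeak lists are on hg19. Bowtie2 2.4.5, Picard, SAMtools 1.15.1, bedtools and MACS2 2.1.4 and the builds hg19 and dm6 are named per the submitters' processing notes. Caller settings and a control library were not given in the sources used here. Peaks present in at least 2 replicates were kept from the largest replicate's file, per the labels. By the deposited peak names this was replicate 3 for HA-BAZ2B, 2 for WT and 1 for H3K4me3, with a run tag in the WT and H3K4me3 names that HA-BAZ2B lacks. Its meaning is not stated, and its effect on the comparison of the lines was not tested.

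The deposited fold enrichment is the authors' ratio over the peak caller's background of that library. The deposited −log10 q is the authors' significance per peak. The narrowPeak score deposited by the authors follows the −log10 q and was not used. Start, end and summit are positions in bp. Library depth is unknown. The antibody field of H3K4me3 replicates 2 and 3 differs from that of replicate 1, and titles were followed.

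Only chromosomes 1 to 22, X and Y were used, which left out 233 HA-BAZ2B, 62 WT and 612 H3K4me3 peaks. All 9 named genes are reported. A peak counted at a gene when its nearest edge lay within 2 kb of the hg19 start, and overlap needed 1 bp. A percentile is the share of a list at or below the value. Deciles are of nearly equal number. Peak numbers rise along each chromosome, and missing numbers count peaks of the source library that were not kept. Chromosome lengths came from GenomeInfoDb 1.38.1. Python 3.11.15, numpy 2.4.6, pandas 2.3.3, scipy 1.17.1 and matplotlib 3.10.9 were used, and the overlap code was tested on simulated data. Alternatives were windows of 1 and 5 kb, summits in place of edges, a −log10 q of at least 5, an overlap of 50% and ranks by −log10 q. Other genes of the pathway and cell type markers were not analysed here, for want of an hg19 annotation.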

Additional observations from a re-analysis of the deposited data

How the results depend on the processing

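The numbers of genes with a peak, 7 for HA-BAZ2B, 2 for WT and 8 for H3K4me3, were the same with windows of 1 and 5 kb, with the summit in place of the nearest edge and with a −log10 q of at least 5. The 8 and 2 of 9 H3K4me3 peaks with an HA-BAZ2B and a WT peak were also the same with a −log10 q of at least 5 and with both other windows. When 50% of the anti-HA peak had to be covered, 6 of 9 carried HA-BAZ2B, since the BAZ2A peak is divided between 2 H3K4me3 peaks, and 2 carried WT. The shares of all H3K4me3 peaks under these stricter settings were not analysed here. The median percentile within the list depended on the measure: ranked by −log10 q it was 83.0 for HA-BAZ2B and 62.9 for H3K4me3, against 36.2 and 33.4 by fold enrichment, and for WT it was 32.9 against 33.6. The cause was not tested. The median width ratio of 1.02 and summit distance of 107.5 bp over 6 pairs were the same with the 50% overlap. No paired analysis was possible because the lists carry no value per replicate, and for the same reason no replicate could be left out.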

Other observations

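From 2 to 150 kb of the 9 start sites, 21 further H3K4me3 peaks were listed around 7 of the genes. An HA-BAZ2B peak overlapped 5 of them (23.8%) and a WT peak 2, against 39.5% and 13.1% of all H3K4me3 peaks. The 5 lay around BAZ1B and BAZ2A only. The −log10 q of the 21 ranged from 4.70 to 70.3, and a share matched by −log10 q and width was not analysed for them. Upstream of BAZ1B, HA-BAZ2B peaks stood from 34155 to 35776 bp (fold enrichment 6.75) and from 55419 to 56501 bp (10.00) from the start, each on an H3K4me3 peak. RefSeq has starts of BCL7B, a BAF complex subunit gene, 34.9 and 35.4 kb upstream of the BAZ1B start, and of TBL2 56.1 and 56.3 kb upstream, on GRCh38. H3K4me3 peaks 88.1 kb downstream and 102 and 145 kb upstream of BAZ1B carried no anti-HA peak. Upstream of BAZ2A, HA-BAZ2B peaks stood at 8.58, 50.7 and 87.8 kb, and those at 8.58 and 87.8 kb overlapped an H3K4me3 peak that also carried a WT peak.

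The H3K4me3 peak 16.7 kb upstream of SMARCA1 had a fold enrichment of 11.66, above that of SMARCA1 itself (10.48), and overlapped no anti-HA peak. RefSeq has a start of OCRL, a phosphatase gene, 16.8 kb upstream of SMARCA1 on the opposite strand on GRCh38. The −log10 q of that H3K4me3 peak was 37.1, against 65.1 at SMARCA1.

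Of the 7 genes found in the RefSeq promoter table, the G-run pattern stood before a start of BAZ2A, SMARCA5 and SMARCA1. The first 2 of these were the genes with a WT peak. The pattern stood in 28.8% of protein-coding entries, and a WT peak on 13.1% of all H3K4me3 peaks. The other BAZ2A start lacked the pattern, and BAZ1A and BPTF, which had no WT peak, were not in the promoter table. BAZ2B, BAZ1B and RSF1 had neither the pattern nor a WT peak. CECR2 had no pattern before its RefSeq start and no WT peak at the start used for the peaks. Whether these are the same start was not determined, so CECR2 is not read as a gene lacking both. With 7 genes the pattern and the WT peaks are set side by side as a description, and no relation was tested.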
